A study of Rattus norvegicus with 6 samples.

Results

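The genes described here carry glucose and lactate across the cell membrane or run the last shared steps of glycolysis, and each function is covered by a pair of isoforms. They are the glucose transporters Slc2a1 and Slc2a4, the lactate transporters Slc16a1 and Slc16a3, the lactate dehydrogenases Ldha and Ldhb, the enolases Eno1 and Eno3, and the phosphoglycerate mutases Pgam1 and Pgam2. Each was taken as the row of the deposited count table whose gene name equals the symbol, which gave 10 genes of 32883 rows with a gene name, with 10 rows matching and no symbol repeated. All 10 passed the filter on low counts. The table held hearts of male wild-type Sprague–Dawley rats, an outbred strain, aged 8 weeks. Of these, 3 rats had received ISO at 1.5 mg/kg per day under the skin for 7 days, and 3 had received the same volume of saline for 7 days. The labels write only ISO, taken here to be isoproterenol, which stimulates the beta-adrenergic receptors of the heart. The series uses this treatment as a model of myocardial hypertrophy and fibrosis, at 1 dose and 1 duration, and the series description gives 3 rats a group.

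Glucose enters heart muscle cells through GLUT1, the basal carrier encoded by Slc2a1, and through GLUT4, the carrier encoded by Slc2a4 that insulin and contraction bring to the cell surface. Further down the pathway, phosphoglycerate mutase and then enolase prepare the phosphate group that pyruvate kinase transfers to ADP. Lactate dehydrogenase converts pyruvate and lactate into each other, and the monocarboxylate carriers MCT1 (Slc16a1) and MCT4 (Slc16a3) move lactate with a proton. Adult heart muscle is known for the Ldhb, Eno3, Pgam2 and Slc2a4 forms and for taking up lactate as a fuel through MCT1, whereas MCT4 is the form of cells that export lactate. A return towards the ubiquitous or fetal forms, with more use of glucose, is a textbook feature of the hypertrophied heart.

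The isoform ratio kept the groups apart in 2 of 5 pairs, the enolases and the lactate transporters. Eno3, Slc16a1 and Slc16a3 also kept the groups apart as single genes, as did 28.8% of all tested genes. The share among ratios of other genes was not computed. For the enolases and the lactate transporters the 250 bases before the RefSeq start site are shown, so that the isoforms can be set side by side. They are given on build GRCr8 and in the direction of transcription. Capitals mark ACGTG and GCGTG, the core letters of hypoxia response elements, the E-box CACGTG (which holds ACGTG on both strands), and TATAAA. Each motif was searched on both strands, and capitals on the opposite strand read CACGT or CACGC. Eno3 lies at chr10:55868936-55869185, plus strand. Eno1 is at chr5:166003111-166003360, plus strand, for the second of its 2 listed starts. Slc16a3 is at chr10:106712078-106712327 and Slc16a1 at chr2:194812410-194812659, both plus strand.
Eno3: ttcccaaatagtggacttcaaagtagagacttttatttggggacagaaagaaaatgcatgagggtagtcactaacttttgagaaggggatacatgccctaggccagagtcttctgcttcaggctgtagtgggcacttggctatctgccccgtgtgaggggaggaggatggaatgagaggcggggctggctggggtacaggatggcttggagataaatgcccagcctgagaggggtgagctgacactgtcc
Eno1: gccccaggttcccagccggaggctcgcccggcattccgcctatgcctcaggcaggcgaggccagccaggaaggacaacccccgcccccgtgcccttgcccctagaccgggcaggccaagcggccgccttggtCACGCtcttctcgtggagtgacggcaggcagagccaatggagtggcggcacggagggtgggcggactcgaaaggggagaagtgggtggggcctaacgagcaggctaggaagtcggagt
Slc16a3: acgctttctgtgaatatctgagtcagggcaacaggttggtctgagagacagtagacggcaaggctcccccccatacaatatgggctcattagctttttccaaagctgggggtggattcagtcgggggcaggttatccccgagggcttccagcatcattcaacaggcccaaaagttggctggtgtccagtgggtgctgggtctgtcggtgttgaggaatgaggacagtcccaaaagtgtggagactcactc
Slc16a1: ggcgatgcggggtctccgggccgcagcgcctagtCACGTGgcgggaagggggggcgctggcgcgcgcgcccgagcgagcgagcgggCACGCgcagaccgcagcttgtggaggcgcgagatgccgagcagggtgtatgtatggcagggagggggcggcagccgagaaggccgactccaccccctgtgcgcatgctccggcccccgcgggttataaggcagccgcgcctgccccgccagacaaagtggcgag

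The windows of Eno3 and Slc16a3 held none of the 4 motifs, while Slc16a1 held CACGTG and GCGTG and this Eno1 window held GCGTG. The table matched 9 of the 10 genes, with 10 windows in all. ACGTG was in the windows of Slc2a1, Slc16a1, Ldha and Pgam1 and in 16.6% of all 33469 windows of that length. GCGTG was in 7 of the 10 windows, those of the same 4 genes with Ldhb and both of Eno1, against 25.9% of all windows. CACGTG was in Slc16a1 and Ldha, against 5.6%, and TATAAA in Pgam2, against 12.9%. The share of G and C was 52.4% for Eno3, against 69.2% for the Eno1 window shown and 54.4% for that of its other start, so a difference between the enolases depends on the start. It was 54.0% for Slc16a3 and 74.0% for Slc16a1, and a median of 51.2% over all windows. The other windows with ACGTG were also above that median, at 68.4% for Slc2a1, 66.4% for Ldha and 63.6% for Pgam1. The motif counts were not adjusted for the share of G and C. A match describes letters only, and which start site is used in these hearts was not measured.

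Values below are CPM, read counts per 1000000 reads of the TMM-scaled library size, and each log2 fold change is that of ISO relative to saline from edgeR's quasi-likelihood test. A gene is called at an adjusted p under 0.05, with adjustment over all 13766 tested genes. ISO libraries 1 to 3 held 15259502, 16454903 and 16175049 counts, and saline libraries 1 to 3 held 14880391, 17299589 and 16776064. A count of 3 reads corresponded to 0.175 to 0.204 CPM. CPM are not divided by transcript length, so levels are compared between groups and not between isoforms.

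All 9 cardiomyocyte markers in the table passed the filter in these heart libraries, and some libraries stood apart from their group. ISO replicate 1 held RNA of atrial genes, with 1128 counts of the atrial myosin light chain gene Myl7 against 17 and 0 in ISO replicates 2 and 3 and 9, 25 and 17 in saline. ISO replicate 3 had the most fibroblast RNA, with summed markers at 20226 CPM against 9337 and 7510 CPM in ISO replicates 1 and 2 and 3288 to 4161 CPM in saline hearts. Saline replicate 2 had the highest sum of red cell markers, at 6062 CPM against 1869.7 and 2083 CPM in the other saline libraries and 633 to 2333 CPM in ISO. Of its sum, 6008 CPM came from the globin gene Hbb. In whole tissue, fewer cells of a type and less RNA per cell cannot be told apart.

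ISO hearts had more RNA of the muscle enolase gene and less of the lactate importer gene, and the other 8 genes did not pass the test. Eno3 rose 2.37-fold and Slc16a1 fell to 0.647 of its saline level. That is 1 gene called higher and 1 lower of 10, where 1.47% of all tested genes were called higher and 1.5% lower, 2.97% in all. Groups did not overlap for 5 of the 10 genes, with Eno3 and Slc16a3 higher and Slc16a1, Slc2a1 and Pgam1 lower in every ISO heart. Over all tested genes 28.8% did not overlap, 14.1% with ISO higher and 14.6% with ISO lower. At an unadjusted edgeR p under 0.05 the same 5 genes passed, where 22.9% of all tested genes did. DESeq2 called 3 of the 10, 2 higher and 1 lower, where it called 5.69% of genes higher and 10.6% in all, and voom called 2, where it called 2.39%. The median log2 fold change of the 10 genes was −0.11, against 0.02 over all tested genes.

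**Figure D1:**
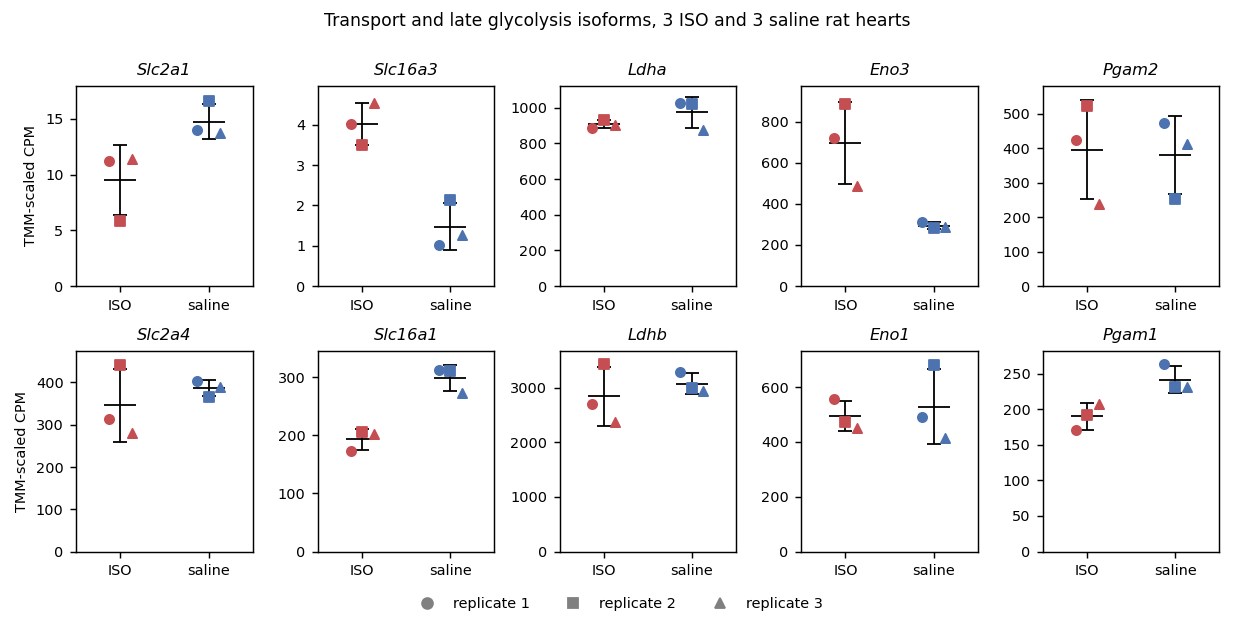
TMM-scaled CPM of the 10 genes in each heart, with ISO left of saline and 1 column of panels per isoform pair. Points are libraries, bars are mean ± SD (n = 3 each), and every axis starts at 0. Eno3 lies between 488 and 886 CPM in ISO hearts and between 282 and 313 CPM in saline hearts.

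Enolase, which forms phosphoenolpyruvate, is made in muscle from Eno3 (the beta subunit, ENSRNOG00000004078) and in most tissues from Eno1 (the alpha subunit, ENSRNOG00000017895). Eno3 stood at 719, 886 and 488 CPM in ISO replicates 1 to 3, against 313, 282 and 286 CPM in saline replicates 1 to 3. The ISO hearts all lay above the saline hearts, and ISO replicate 3, the lowest of them, was still 0.73 above the saline mean on the log2 scale, where ISO replicate 2 was 1.59 above it. The means were 698 ± 199.8 CPM in ISO hearts and 294 ± 16.8 CPM in saline hearts (SD, n = 3 each), so the spread was wide in ISO and narrow in saline. The log2 fold change was 1.25 (SE 0.21, edgeR adjusted p = 0.0244), with a 95% interval from 0.77 to 1.72. Eno3 kept its call without ISO replicate 3 (1.45, edgeR adjusted p = 0.0071) and without ISO replicate 2 (1.04, edgeR adjusted p = 0.0246). It lost the call without ISO replicate 1 (edgeR adjusted p = 0.0888) or without saline replicate 1, 2 or 3 (0.0933, 0.0976 and 0.125), at log2 fold changes of 1.22 to 1.29.

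Eno1 did not pass the test. It stood at 555, 474 and 451 CPM in ISO hearts and at 489, 681 and 415 CPM in saline hearts, with groups that overlapped and saline replicate 2 far above the rest. Its log2 fold change was −0.10 (SE 0.19, edgeR adjusted p = 0.8), with an interval from −0.54 to 0.34. The sign was positive without scaling and without saline replicate 2, so no direction is given. Eno3 made up 56.4%, 65.2% and 52.0% of the enolase reads of the pair in ISO hearts and 39.0%, 29.3% and 40.9% in saline hearts. The log2 ratio of Eno3 over Eno1 averaged 0.46 ± 0.40 in ISO and −0.82 ± 0.40 in saline (SD, n = 3 each), a difference of 1.28. The lowest ISO ratio lay 0.65 above the highest saline ratio (exact two-sided permutation test p = 0.1, the smallest that 3 against 3 hearts allow). The difference in this ratio does not depend on library scaling, and it ranged from 1.05 to 1.45 with any 1 library left out.

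MCT1 carries lactate into heart muscle cells, and its gene was the one called lower. Slc16a1 (MCT1, ENSRNOG00000019996) stood at 172, 206 and 202 CPM in ISO replicates 1 to 3, against 313, 310.3 and 273 CPM in saline replicates 1 to 3. Its groups were well apart, and the lowest saline heart was above the highest ISO heart. The means were 193 ± 18.2 CPM in ISO hearts and 299 ± 22.2 CPM in saline hearts. The log2 fold change was −0.63 (SE 0.12, edgeR adjusted p = 0.0346), with an interval from −0.90 to −0.35. Leaving out any library but ISO replicate 2 ended the call, at log2 fold changes from −0.69 to −0.56 and adjusted p from 0.0531 (without ISO replicate 3) to 0.138 (without ISO replicate 1). Without scaling it was −0.52 and also not called (edgeR adjusted p = 0.0574).

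Slc16a3 (MCT4, ENSRNOG00000036677) was scarce in all hearts, with 64, 56 and 78 counts in ISO replicates 1 to 3 against 15, 34 and 20 counts in saline replicates 1 to 3. These counts correspond to 4.01, 3.49 and 4.55 CPM in ISO hearts and 1.02, 2.13 and 1.26 CPM in saline hearts. Every ISO heart was above every saline heart, and saline replicate 2 was the nearest to the ISO group. The means were 4.02 ± 0.529 CPM in ISO hearts and 1.47 ± 0.581 CPM in saline hearts. The log2 fold change was 1.44 (SE 0.34), and the interval from 0.66 to 2.23 lay above 0, yet the gene was not called by edgeR (adjusted p = 0.0616). DESeq2 called it at 1.44 (adjusted p = 0.00753). No fit that left out 1 library called it, at values from 1.24 to 1.80. The log2 ratio of Slc16a3 over Slc16a1 averaged −5.43 ± 0.23 in ISO and −7.28 ± 0.40 in saline, with a pseudocount of 0.5 CPM. The difference of 1.86 left a gap of 1.20 between the groups (exact two-sided permutation test p = 0.1, the smallest possible), and it was 1.43 with a pseudocount of 2 and 2.07 with 0.1.

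**Figure D2:**
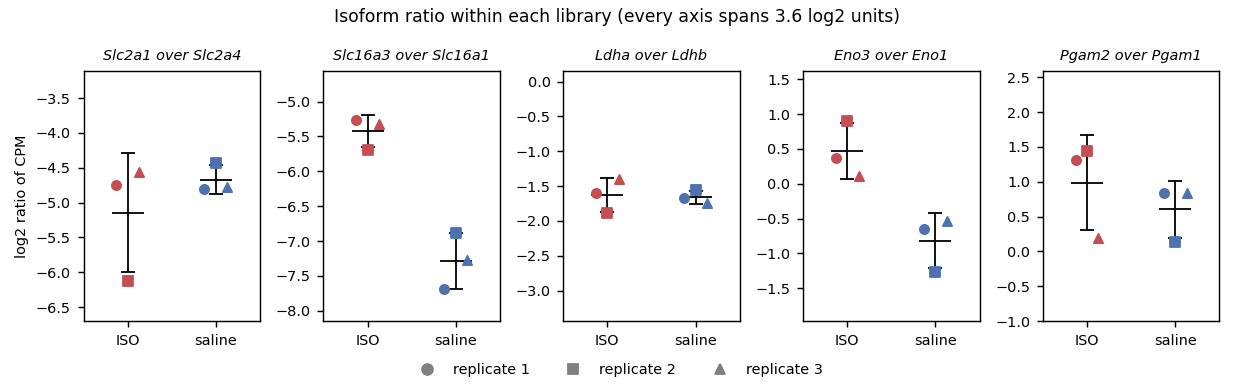
Log2 ratio of the CPM of the isoforms of each pair within each library (pseudocount 0.5 CPM), ISO left of saline, with mean ± SD (n = 3 each). Every axis spans the same range. The groups are apart for Slc16a3 over Slc16a1 and for Eno3 over Eno1 and overlap for the other 3 pairs.

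The glucose transporters did not pass the test. Slc2a1 (GLUT1, ENSRNOG00000007284) stood at 11.2, 5.86 and 11.4 CPM in ISO hearts and at 14.0, 16.6 and 13.7 CPM in saline hearts. Each ISO heart lay below each saline heart, but ISO replicate 2 was far below the others. Its mean was 9.50 ± 3.16 CPM in ISO hearts and 14.7 ± 1.58 CPM in saline hearts, which gave −0.63 on the log2 scale (SE 0.25, edgeR adjusted p = 0.188) with an interval from −1.21 to −0.05. Without ISO replicate 2 the value was −0.38 (edgeR adjusted p = 0.196). Slc2a4 (GLUT4, ENSRNOG00000017226) stood at 314, 442 and 281 CPM in ISO hearts and at 405, 366 and 388 CPM in saline hearts. The ISO hearts lay on both sides of the saline group, with means of 346 ± 85.4 CPM in ISO hearts and 386 ± 19.4 CPM in saline hearts. Its log2 fold change was −0.16 (SE 0.17, edgeR adjusted p = 0.629), and the interval from −0.56 to 0.24 spans a fold of 0.678 to 1.18.

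Between these transporters, the log2 ratio of Slc2a1 over Slc2a4 was −4.75, −6.12 and −4.56 in ISO hearts and −4.81, −4.42 and −4.77 in saline hearts. ISO replicate 2 alone lay apart, and the difference of −0.47 (exact two-sided permutation test p = 0.6) was 0.02 without it. A difference in this ratio was not detected with 3 hearts a group.

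Neither lactate dehydrogenase gene passed the test. Ldha, the muscle subunit (ENSRNOG00000013009), stood at 889, 932 and 905 CPM in ISO hearts and at 1029, 1019.6 and 875 CPM in saline hearts. Ldhb, the heart subunit (ENSRNOG00000013000), stood at 2706, 3439 and 2378 CPM in ISO hearts and at 3288, 3004 and 2937 CPM in saline hearts. The groups overlapped for both genes. The ISO hearts were tight for Ldha (909 ± 21.9 CPM, against 974 ± 86.4 CPM in saline hearts) and spread out for Ldhb (2841 ± 543 CPM, against 3076 ± 186 CPM in saline hearts).

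For Ldha the log2 fold change was −0.10 (SE 0.12, edgeR adjusted p = 0.676), with an interval from −0.39 to 0.18, and the value was 0.01 without scaling. Ldhb gave −0.11 (SE 0.17, edgeR adjusted p = 0.738), with an interval from −0.51 to 0.28. The log2 ratio of Ldha over Ldhb averaged −1.63 ± 0.25 in ISO and −1.66 ± 0.10 in saline. Its difference of 0.03 was smaller than either SD (exact two-sided permutation test p = 0.9) and was below 0 without ISO replicate 3 or saline replicate 3.

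Phosphoglycerate mutase acts in the step before enolase, and Pgam2 is its muscle form as Eno3 is that of enolase. Pgam2 (ENSRNOG00000013532) stood at 424, 521 and 238 CPM in ISO hearts and at 474, 253 and 412 CPM in saline hearts. It varied about as much within each group, with means of 394 ± 143 CPM in ISO hearts and 379.7 ± 114 CPM in saline hearts, and ISO replicate 3 and saline replicate 2 were the low hearts. Its log2 fold change was 0.05 (SE 0.31, edgeR adjusted p = 0.939) with an interval from −0.65 to 0.76, the second widest of the 10 after that of Slc16a3. Its sign was negative in 3 of the 6 fits that left out 1 library. Eno3 reads per Pgam2 read, a ratio chosen after the values were seen and given with no test, were 1.69, 1.70 and 2.05 in ISO hearts and 0.661, 1.11 and 0.695 in saline hearts.

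Pgam1, the form of most tissues (ENSRNOG00000050585), stood at 170.3, 192 and 208 CPM in ISO hearts and at 263, 231 and 231 CPM in saline hearts. All ISO hearts were below all saline hearts, with means of 189.8 ± 18.7 CPM in ISO hearts and 242 ± 18.8 CPM in saline hearts. The log2 fold change of −0.35 (SE 0.12) did not pass the test (edgeR adjusted p = 0.137), with an interval from −0.62 to −0.07. DESeq2 gave an adjusted p of 0.0584. The log2 ratio of Pgam2 over Pgam1 averaged 0.98 ± 0.68 in ISO and 0.61 ± 0.41 in saline, a difference of 0.38 with groups that overlapped (exact two-sided permutation test p = 0.5). It was 0.77 without ISO replicate 3 and 0.14 without saline replicate 2. The 5 isoform ratios were compared with 3 hearts a group, so none could reach a p under 0.05. Adjusted over these 5, the exact permutation p was 0.25 for the enolases and the lactate transporters, 0.75 for the glucose transporters and the mutases and 0.9 for the dehydrogenases.

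**Figure D3:**
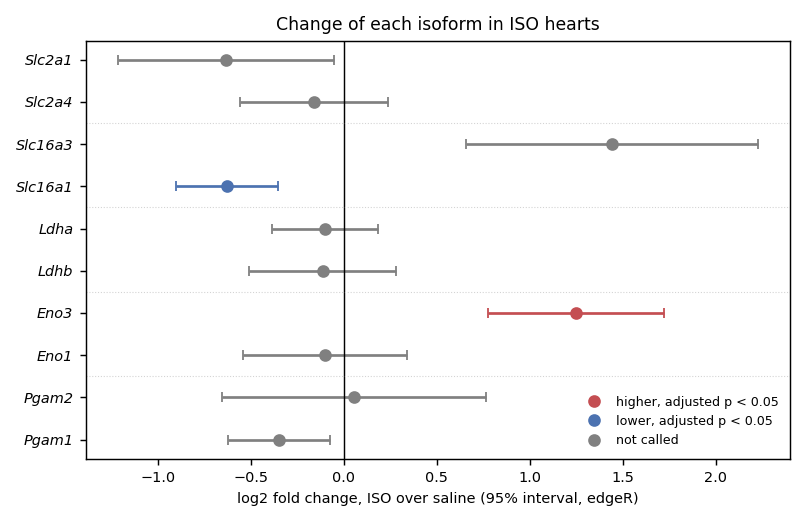
Log2 fold change of each gene, ISO over saline, with its 95% interval from edgeR. Dotted lines part the isoform pairs. Eno3 at 1.25 and Slc16a1 at −0.63 are called, and the intervals of Slc16a3, Slc2a1 and Pgam1 exclude 0 while their adjusted p does not pass.

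Several of the muscle forms shared an order among hearts. Summed cardiomyocyte markers (9 genes in the table) stood at 38787, 46622 and 32663 CPM in ISO replicates 1 to 3 and at 61978, 49924 and 57263 CPM in saline replicates 1 to 3. The sum was lower in every ISO heart than in every saline heart, with Myh6 and Actc1 its largest parts. As single genes, only 3 of the 9 were lower in every ISO heart (Actc1, Ryr2 and Pln), and the others overlapped. Tnnt2 (0.07), Tnni3 (0.01) and Ckmt2 (0.24) had log2 fold changes above 0, and the rest lay below 0. Within ISO, the hearts ranked replicate 2, 1, 3 for the summed markers and likewise for Eno3, Pgam2, Slc2a4 and Ldhb. Within saline, replicate 2 was the lowest for the markers and for Eno3, Pgam2 and Slc2a4, but not for Ldhb. Eno3 was higher in every ISO heart while the summed markers were lower there, as the plot against the cardiomyocyte markers shows. Of the 9 markers 1 was called lower and none higher. It was the cardiac actin gene Actc1 at −1.18 (SE 0.16, edgeR adjusted p = 0.0161), and the list's median was −0.45. The part of these markers in the results was not tested.

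**Figure D4:**
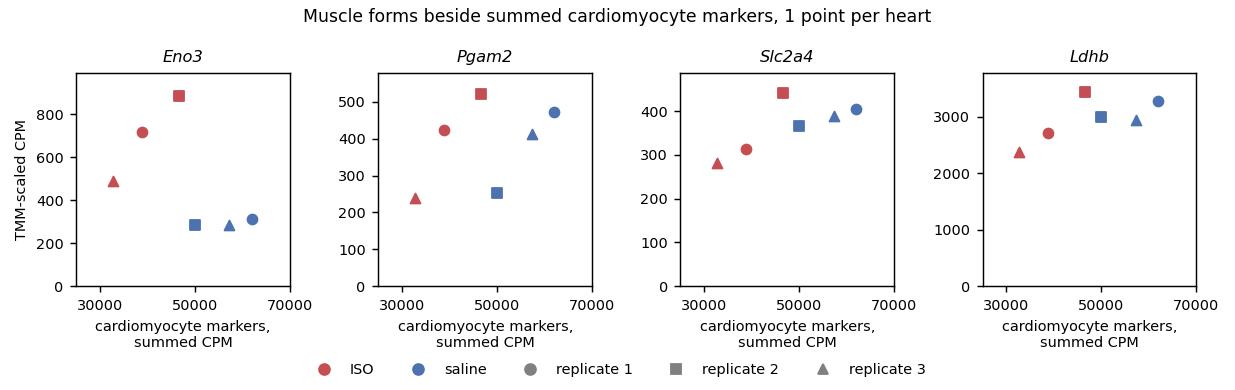
CPM of 4 muscle forms in each heart (vertical axis, from 0) beside the summed CPM of 9 cardiomyocyte markers in the same heart (horizontal axis, not from 0). Colours give the group and symbols the replicate. Myh6 and Actc1 are the largest parts of the sum. ISO hearts lie left of saline hearts in all panels, and above them for Eno3.

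Eno3 and Pgam2 are also abundant in fast skeletal muscle, whose markers were low in count apart from Casq1 and lay on both sides. Summed over 7 genes in the table, these markers stood at 56.8, 31.9 and 47.0 CPM in ISO hearts and at 82.7, 39.8 and 64.0 CPM in saline hearts, with overlapping groups and most of the sum from the calsequestrin gene Casq1. The fast myosin gene Myh1 had 2 to 12 counts in ISO and 2 to 4 in saline, and the calcium buffer gene Pvalb had at most 1 count in any heart. Chosen after the values were seen, Tnni2, the fast troponin I gene, was under the filter but higher in every ISO heart, with 6, 7 and 14 counts in ISO and 2, 1 and 4 counts in saline. The other fast troponin gene, Tnnt3, gave 0.41 (edgeR adjusted p = 0.35), and the myosin light chain gene Mylpf gave −0.56 (edgeR adjusted p = 0.388). None of the 3 tested members was called by edgeR, none had an unadjusted p under 0.05, and the median of the list was −0.56. Their part in the Eno3 values was not tested.

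Slc16a3 is also expressed by stromal and immune cells, and their markers were higher in ISO. Summed macrophage markers stood at 549, 467 and 774 CPM in ISO hearts and at 274, 315 and 269 CPM in saline hearts, with 4 of 8 called higher (Cd163, C1qa, C1qc and Csf1r) and a median of 1.05. ISO replicate 3 was the highest and ISO replicate 2 the lowest of the ISO hearts for these markers and for Slc16a3, and saline replicate 2 was the highest of the saline hearts for both. Of 8 fibroblast markers 3 were called higher (Postn, Col3a1 and Dpt, median of the list 1.35), and the sum was 7510 CPM or more in ISO and 4161 CPM or less in saline. Their part in the Slc16a3 values was not tested.

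In humans, red cells carry GLUT1 and MCT1, and whether the red cells of these rats do was not measured. Of 8 red cell markers listed, 5 matched a symbol of the count table, of which Hemgn was called lower at −2.57, and the median of the 5 was −0.96. The alpha globin genes stand in the table under other symbols and were not in these sums; Hba-a1 gave −0.81 and Hba-a2 −0.85, neither called. Saline replicate 2 had the highest sum of these markers, almost all of it from the globin gene Hbb. Without that heart the log2 fold change was −0.60 for Slc16a1 and −0.54 for Slc2a1, against −0.63 for each with all hearts. Hemgn, Slc4a1 and Ahsp were highest in saline replicate 1, and each was lower in every ISO heart than in every saline heart. Leaving out saline replicate 2 thus does not remove the difference in these markers. Their part in the Slc16a1 and Slc2a1 values was not tested. Of the other lists, none of 7 endothelial members was called (median −0.05), none of 8 smooth muscle and pericyte members (median 0.22) and none of 3 tested atrial members (median 3.59). At an unadjusted edgeR p under 0.05 these had 1, 3 and 2 members. Of 2 tested adipocyte markers 1 was higher, the complement factor D gene Cfd at 1.08, and Ucp1 had no count in any heart. Without ISO replicate 1, the heart with atrial RNA, Eno3 was 1.22, Slc16a1 −0.56 and Slc16a3 1.44.

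Around the 10 genes, 4 further lists of the pathway held 52 tested genes. Among these, 1 was called higher and 3 lower, with a median of −0.01. Over all tested genes 1.47% were called higher and 1.5% lower. At an unadjusted edgeR p under 0.05, 19 of the 52 passed, where 22.9% of all tested genes did. Of 14 tested enzymes of glycolysis 1 was lower, none higher and 13 not called (median −0.11). The lower one was Hk2, the insulin-regulated hexokinase, at 64.8 ± 11.2 CPM in ISO hearts and 105 ± 7.19 CPM in saline hearts (−0.70, SE 0.14, edgeR adjusted p = 0.0416). Gapdh, with the highest mean CPM of them over all 6 hearts, was not called at 2620 ± 276 CPM in ISO hearts and 2129 ± 73.5 CPM in saline hearts (0.30, edgeR adjusted p = 0.248), with every ISO heart above every saline heart.

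Of 12 tested genes of glucose transport and its control 1 was higher (median 0.22). It was Txnip, which restrains glucose uptake by GLUT1 and GLUT4, at 1412 ± 133 CPM in ISO hearts and 656 ± 142 CPM in saline hearts (1.11, SE 0.18, edgeR adjusted p = 0.0227). Tbc1d4, which holds GLUT4 inside the cell, gave −0.32 (SE 0.17, edgeR adjusted p = 0.305). Among 13 tested monocarboxylate carriers, their partners and lactate enzymes 1 was lower (median −0.04), the carrier gene Slc16a6 at 5.28 ± 1.19 CPM in ISO hearts and 11.4 ± 1.97 CPM in saline hearts (−1.11, SE 0.23, edgeR adjusted p = 0.0462). Bsg, the basigin gene whose product brings MCT1 and MCT4 to the membrane, was not called at 701 ± 77.6 CPM in ISO hearts and 564 ± 55.4 CPM in saline hearts (0.31, edgeR adjusted p = 0.218).

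Several of the 10 genes are textbook targets of hypoxia-inducible factors, and 13 tested targets outside glycolysis were set beside them. Of these 1 was lower and none higher (median 0.04), the prolyl hydroxylase gene Egln3 at 151 ± 11.4 CPM in ISO hearts and 270.1 ± 43.6 CPM in saline hearts (−0.84, SE 0.14, edgeR adjusted p = 0.0266). At an unadjusted edgeR p under 0.05, 8 of the 13 passed, where 22.9% of all tested genes did, and they lay on both sides of 0. In the glycolysis, glucose transport and monocarboxylate lists 4 of 14, 4 of 12 and 3 of 13 passed at that p. Chosen after the values were seen, the heme oxygenase gene Hmox1 gave 1.52 (edgeR adjusted p = 0.11) and the mTOR inhibitor gene Ddit4 1.09 (edgeR adjusted p = 0.105), and for both every ISO heart was above every saline heart. Vegfa, which drives vessel growth, did not pass (−0.42, SE 0.17, with an adjusted p of 0.195 in edgeR). The number called in these 4 lists depended on single libraries as well. Without ISO replicate 1 or any 1 saline library edgeR called 0 (10 to 18 at an unadjusted p under 0.05). In the whole table those fits called 12 to 26 genes, and 2322 to 2663 passed at that unadjusted p. It called 6 without ISO replicate 2 and 2 without ISO replicate 3, where it called 838 and 295 in the whole table. DESeq2 called 8, where it called 10.6% of all genes, and voom called 3, where it called 2.39%.

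**Figure D5:**
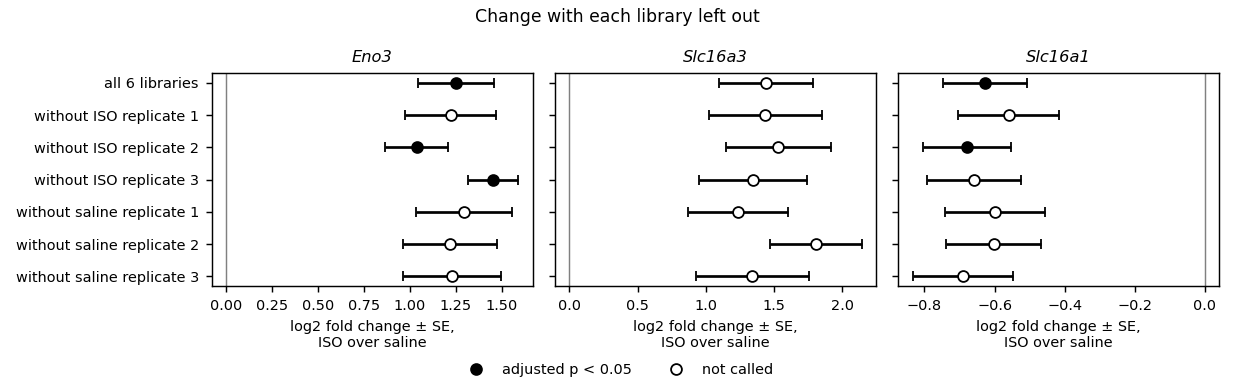
Log2 fold change ± SE (edgeR, ISO over saline) of Eno3, Slc16a3 and Slc16a1 with all 6 libraries and with each library left out in turn. Filled points have an adjusted p under 0.05. The value stays between 1.04 and 1.45 for Eno3 and between −0.69 and −0.56 for Slc16a1, while the call was lost in 4 of 6 fits for Eno3 and 5 of 6 for Slc16a1.

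The genes whose course over the 6 hearts was nearest to that of Eno3 were Sult1a1, Rab30 and Ivns1abp. Likeness was the root mean square difference of log2 CPM centred on the saline mean, among 8200 other genes of at least 10 CPM, and was 0.15, 0.20 and 0.21 for these. Sult1a1, a phenol sulfotransferase gene, stood at 47.5 ± 9.68 CPM in ISO hearts and 21.3 ± 0.608 CPM in saline hearts. For Slc16a1 the nearest were Adam19 (0.04), Chordc1 (0.06) and Slirp (0.06), and Adam19, a membrane metalloprotease gene, stood at 171 ± 17.0 CPM in ISO hearts and 255 ± 11.8 CPM in saline hearts.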

How the data were processed

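The authors deposited whole-number read counts per gene for 6 libraries. Per the series description, 150 bp read pairs were mapped to the rat reference with HISAT2 and summarised with featureCounts. Tool versions, the annotation release, the strand setting and the handling of reads with several matches were not stated in the sources used. Ldha, Eno1, Pgam1 and Gapdh, which have near-identical copies, and overlapping or antisense genes are therefore uncertain. The submitters' processing notes list mm10, while all 32883 named rows carry rat Ensembl IDs. The other 1006 rows had no gene name, took 0.981% to 1.32% of a library and were left out.

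The test was edgeR 4.0.16 under R 4.3.3 (TMM, default filter, quasi-likelihood F test, Benjamini-Hochberg), and it was run on simulated data. There it recovered 16% of changes of 1.5-fold, 42% of 2-fold and 88% of 4-fold, and 14 of its 135 calls were false. A gene not called may therefore still have changed, and some calls may be false. SE is the size of the log2 fold change divided by the square root of F. Isoform ratios used exact permutation tests over hearts. Alternatives were DESeq2 1.42.0, voom of limma 3.58.1, other scaling, filters and thresholds, summed symbols, a replicate block and each library left out. The 10 genes, the lists and the naming rule were chosen with earlier results of these data known. That rule takes, from each pathway list, the called genes and the most abundant ones up to 2, and for Eno3 and Slc16a1 the 3 nearest courses. From the marker lists it takes the called genes up to 2 and the most abundant, not all of which are printed. Promoter windows come from RefSeq, build GRCr8. Libraries differed from each other by more than sampling noise, and p-values weigh the difference between groups against the spread among these hearts.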

Additional observations from a re-analysis of the deposited data

How the results depend on the processing

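Slc2a1, Slc2a4, Slc16a1, Slc16a3, Eno3 and Pgam1 kept their sign under all 16 alternatives. Called genes numbered 409 in the whole table, and 1405 with DESeq2, 1812 by the series' rule (a log2 change beyond 0.5 in either direction and an unadjusted p under 0.05), 11 at an adjusted p under 0.01 and 28 with the replicate number as a block; without 1 library they ranged from 12 to 838. Of the 10 genes edgeR called 2, and 1 without scaling. By the series' rule 4 passed, where 13.2% of all tested genes did. The number was 0 at an adjusted p under 0.01 and 0 with the replicate block. With the block 4 of the 10 had an unadjusted edgeR p under 0.05, as had 2609 genes of the whole table. DESeq2 called 3 and voom 2, and fits without 1 library called 0 to 2. Of the other pathway genes 4 were called, 8 with DESeq2, 0 with the replicate block (16 at an unadjusted p under 0.05) and 0 to 6 without 1 library. With the block, Eno3 had an edgeR adjusted p of 0.0648 and Slc16a1 of 0.105. The labels do not say that numbers pair the hearts, and deviations of same-numbered hearts correlated at 0.09, −0.10 and 0.02 over genes, so the block is no evidence of a weaker effect.

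Signs reversed without scaling for Ldha (0.00603) and Eno1 (0.0129), for Eno1 without saline replicate 2 (0.12, in a range from −0.25 without 1 library), for Ldhb without ISO replicate 3 (0.0013, range from −0.28), and for Pgam2 without ISO replicate 1 (−0.0050), ISO replicate 2 (−0.20) or saline replicate 2 (−0.17), in a range up to 0.32. The log2 ratio of Slc2a1 over Slc2a4 reversed without ISO replicate 2 (0.0162, range from −0.77), and that of Ldha over Ldhb without ISO replicate 3 (−0.0835) or saline replicate 3 (−0.0099), in a range up to 0.16. The cause was not tested. Without scaling the median of all genes moved to 0.13, and those of the glucose transport and monocarboxylate lists to 0.33 and 0.07. In the table as a whole, 280 genes were then higher and 123 lower, against 203 and 206 with TMM. Slc16a3 had 15 to 78 counts a library, and the SE of its log2 fold change was the largest of the 10 genes (0.34).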
